A study of Homo sapiens with 4 samples.

Results

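Transcription factors of the AP-1 and immediate early classes were measured in 4 RNA-seq libraries of the GBM cell line U87MG. They were taken as 10 genes by symbol (FOS, FOSB, FOSL1, FOSL2, JUN, JUNB, JUND, ATF3, EGR1 and EGR2), and all 10 were found among the 58226 Ensembl gene IDs of the count files, of which 57888 have a GENCODE 29 symbol. R-U87MG, the temozolomide (TMZ)-resistant derivative of U87MG, was kept in 50 μM TMZ and received non-targeting siRNA (si-NC) or siRNA against HDAC6 (si-HDAC6), a cytoplasmic lysine deacetylase. Parental U87MG received si-NC or siRNA against the long non-coding RNA *LINC00461* (si-*LINC00461*). By the study's siRNA procedure, RNA was collected at 72 h. Each condition has 1 library, so no difference has a replicate check and no p-value is given. The 2 controls also come from separate culture lines, so TMZ resistance, the TMZ in the medium, culture history and library cannot be told apart. In bulk RNA, fewer cells with a transcript and less transcript per cell cannot be told apart either.

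AP-1 is a dimer of basic leucine zipper proteins. FOS-family proteins do not readily pair with each other and typically take a JUN protein as partner. JUN proteins also form dimers among themselves, and ATF3 can join them. EGR1 and EGR2 are zinc finger factors. FOS, FOSB, JUN, JUNB, ATF3, EGR1 and EGR2 are immediate early genes, which a stimulus through MAP kinases switches on without new protein synthesis and which soon decline, while FOSL1, FOSL2 and JUND are often present at steadier levels. In GBM, AP-1 is associated with the mesenchymal state and with growth factor signalling.

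The libraries held between 12596072 counts (R-U87MG si-HDAC6) and 20027866 counts (U87MG si-NC). CPM values, scaled to 1000000 counts, are shares of these totals, and the value per kb divides them by the exon length of the gene in GENCODE 29. In all 4 libraries VIM lay between 3170 and 6940 CPM and CD44 between 1604 and 1770 CPM, whereas the glial markers GFAP, S100B and SOX2 did not exceed 0.731 CPM. NES reached 43.0 CPM, EGFR lay between 276 and 599 CPM and OLIG2 between 0.749 and 9.13 CPM, higher in R-U87MG. CDKN2A, CDKN2B and MTAP, which are deleted in U87MG, did not exceed 0.506 CPM. The leukocyte marker PTPRC and the neuronal marker RBFOX3 had at most 3 counts, and the endothelial marker PECAM1 had 27, 16 and 52 counts in the first 3 libraries and 433 in U87MG si-*LINC00461*, whose part in the results was not tested. The targeted genes were lower in their own libraries. In R-U87MG the count of HDAC6 was 296 without and 67 with its siRNA, and in U87MG the count of *LINC00461* was 363 without and 73 with its siRNA.

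FOSL1 and JUN were the most abundant of the 10 genes per kb of exon in every library, and FOS and FOSB were at or near the bottom of the order. FOSL1 (ENSG00000175592, chromosome 11 from 65892049 to 65900573, minus strand, GRCh38) encodes FRA-1. It had 21356 counts in R-U87MG si-NC, 17767 in R-U87MG si-HDAC6, 10181 in U87MG si-NC and 8079 in U87MG si-*LINC00461*. Per kb, its level was 680 CPM (95% exact Poisson interval 671 to 689) in R-U87MG si-NC and 269 CPM (264 to 275) in U87MG si-NC. JUN (ENSG00000177606, chromosome 1 from 58780788 to 58784327, minus strand) encodes the best known JUN protein. Its counts, with the libraries in the same order, were 7197, 6434, 20738 and 20983. Per kb, JUN reached 122 CPM (119 to 125) in R-U87MG si-NC and 293 CPM (289 to 297) in U87MG si-NC. FOSL1 was thus the highest of the 10 genes in both R-U87MG libraries, and JUN the highest in both U87MG libraries. These intervals, like all intervals below, cover counting error only.

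**Figure D1:**
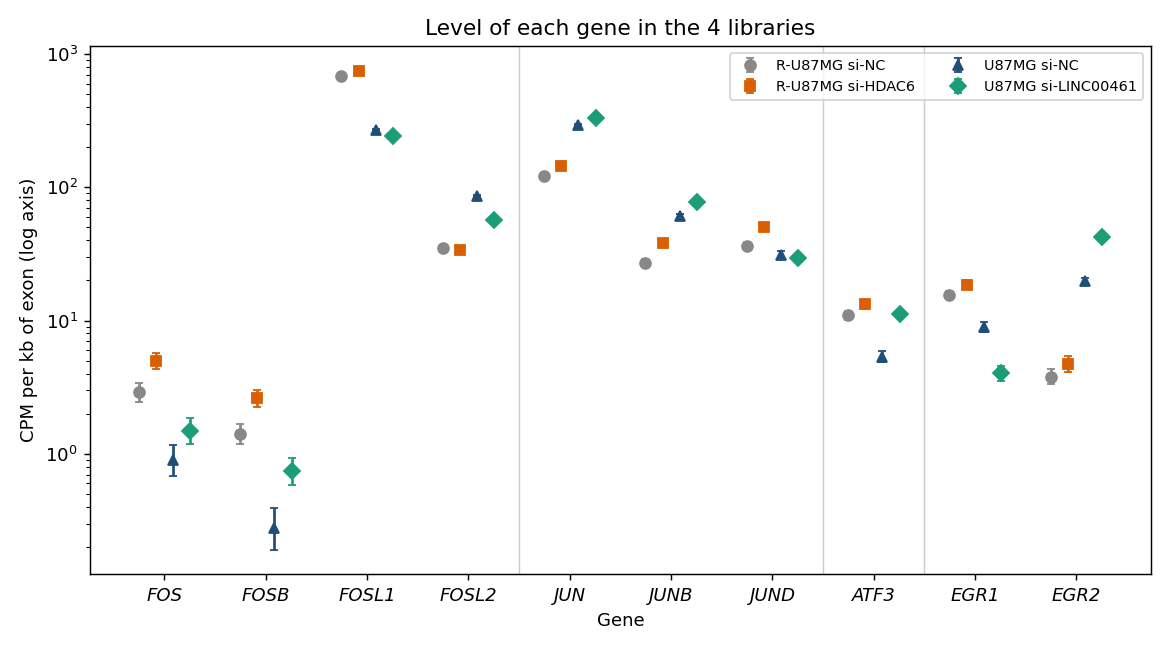
Level of the 10 genes in CPM per kb of exon (log axis) in each of the 4 libraries, 1 point per library with its 95% exact Poisson interval. FOSL1 and JUN are highest in each library, FOSL2, JUN, JUNB and EGR2 are higher in both U87MG libraries than in both R-U87MG libraries, and FOS, FOSB, FOSL1, JUND and EGR1 are higher in both R-U87MG libraries.

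The other members followed in an order that differed between the lines. In R-U87MG si-NC the levels per kb continued with JUND at 36.4 CPM and FOSL2 at 34.9 CPM, whose intervals overlapped, and then JUNB at 27.1, EGR1 at 15.6 and ATF3 at 10.9 CPM. EGR2 at 3.80 CPM and FOS at 2.90 CPM had overlapping intervals, and FOSB was lowest at 1.42 CPM. In U87MG si-NC the order per kb was FOSL2 at 85.8 CPM, JUNB at 60.9, JUND at 31.2, EGR2 at 19.9, EGR1 at 8.93, ATF3 at 5.36, FOS at 0.894 and FOSB at 0.279 CPM, and no neighbouring intervals overlapped. After si-HDAC6 the intervals of FOS (5.0 CPM per kb) and EGR2 (4.71) overlapped, and after si-*LINC00461* none of the neighbours did.

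The balance of FOSL1 and FOSL2, the abundant FOS-family genes, differed between the 2 controls. FOSL2 (ENSG00000075426, chromosome 2 from 28392448 to 28417312, plus strand) encodes FRA-2, and it had 4153 counts in R-U87MG si-NC, 3026 in R-U87MG si-HDAC6, 12299 in U87MG si-NC and 7236 in U87MG si-*LINC00461*. The 2 counts of R-U87MG lay below both of U87MG, the reverse of FOSL1. Between the si-NC libraries, FOSL2 was 2.95-fold lower in R-U87MG (log2 ratio −1.56, 95% exact binomial interval −1.61 to −1.51) and FOSL1 was 2.10-fold higher (log2 ratio 1.07, interval 1.04 to 1.11). The log2 ratios were taken after TMM normalization with 0.5 added to each count.

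The ratio of both genes inside one library needs no scaling between libraries. Per kb, FOSL1 exceeded FOSL2 by 19.5 to 1 (95% interval 18.9 to 20.2) in R-U87MG si-NC and by 22.3 to 1 (21.4 to 23.2) in R-U87MG si-HDAC6. In U87MG the ratio was 3.14 (3.06 to 3.22) with si-NC and 4.23 (4.10 to 4.37) with si-*LINC00461*. The ratio was therefore 6.21-fold (5.95 to 6.48) higher in R-U87MG than in U87MG with si-NC, 1.14-fold (1.09 to 1.20) higher after si-HDAC6 and 1.35-fold (1.29 to 1.41) higher after si-*LINC00461*. As a share of the summed level of the 4 FOS-family genes per kb, FOSL1 made up 94.6% in R-U87MG si-NC and 75.6% in U87MG si-NC. FOSL2 made up 4.85% and 24.1%, respectively.

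**Figure D2:**
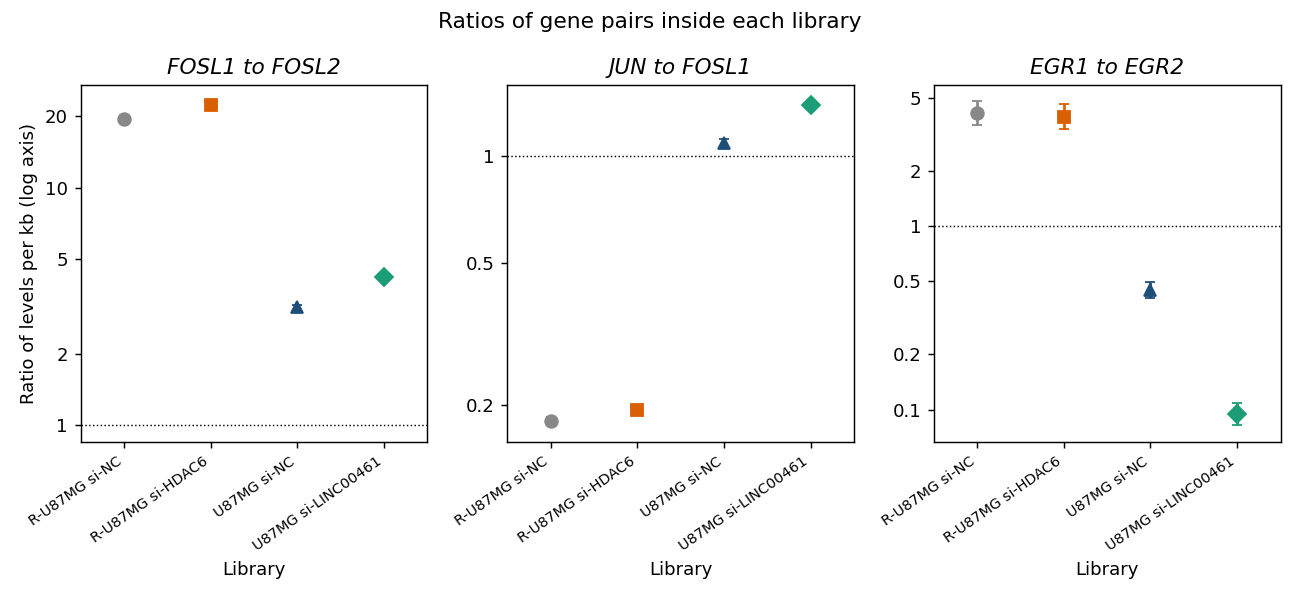
Ratio of the levels per kb of exon of FOSL1 to FOSL2, JUN to FOSL1 and EGR1 to EGR2 inside each of the 4 libraries (log axes, each with its own range), with 95% exact binomial intervals. The dotted line marks equal levels. EGR1 exceeds EGR2 in both R-U87MG libraries and lies below it in both U87MG libraries, and JUN lies below FOSL1 in R-U87MG and above it in U87MG.

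FOS and FOSB, the classical stimulus-induced members of the family, were scarce. FOS (ENSG00000170345, chromosome 14 from 75278774 to 75282230, plus strand) had 156 counts in R-U87MG si-NC, 204 in R-U87MG si-HDAC6, 58 in U87MG si-NC and 86 in U87MG si-*LINC00461*. FOSB (ENSG00000125740, chromosome 19 from 45467995 to 45475179, plus strand) had 131, 184, 31 and 73 counts in the same order. Together they made up less of the FOS family per kb than 1% in every library, with FOS at 0.403% and FOSB at 0.197% in R-U87MG si-NC. Both genes were higher in each knockdown library than in its control. FOSB overlaps ERCC1 on the opposite strand over its 7185 bases, and ERCC1 had 2166, 1725, 2645 and 3231 counts. Whether the counting used strand is not given in the sources used here, so a part of the few FOSB counts may belong to ERCC1, and this was not tested.

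The JUN genes JUN and JUNB were lower in R-U87MG than in U87MG, and JUND was near no difference after TMM. JUNB (ENSG00000171223, chromosome 19 from 12791496 to 12793315, plus strand) had 822 counts in R-U87MG si-NC, 871 in R-U87MG si-HDAC6, 2221 in U87MG si-NC and 2510 in U87MG si-*LINC00461*. Between the si-NC libraries, the log2 ratio of JUN was −1.52 (interval −1.56 to −1.48), or 2.87-fold lower in R-U87MG, and that of JUNB was −1.43 (−1.55 to −1.31), or 2.69-fold lower. JUND (ENSG00000130522, chromosome 19 from 18279760 to 18281622, minus strand), often opposed to JUN in growth control, had 1129, 1180, 1165 and 980 counts. Its log2 ratio between the controls was −0.04 (−0.16 to 0.08), and with total counts in place of TMM it changed sign, to 0.22. JUNB lies wholly inside HOOK2 on the opposite strand, which had 222, 186, 607 and 403 counts. As with FOSB, a part of the JUNB counts may belong to the overlapping gene, and this was not tested.

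Inside the libraries, JUN exceeded JUNB per kb by between 3.80 to 1 in R-U87MG si-HDAC6 and 4.80 to 1 in U87MG si-NC, and the interval of the difference between the 2 controls included no change (0.938-fold, 0.862 to 1.02). The ratio of JUN to JUND was 3.35 in R-U87MG si-NC and 9.37 in U87MG si-NC, 2.79-fold (2.56 to 3.04) lower in R-U87MG. JUN stood at 0.180 of the level of FOSL1 per kb (0.175 to 0.185) in R-U87MG si-NC and at 1.09 of it (1.06 to 1.11) in U87MG si-NC. JUN-family levels per kb summed to 186 CPM in R-U87MG si-NC and 385 CPM in U87MG si-NC, and FOS-family levels to 719 and 356 CPM. The summed FOS family was thus above the JUN family in R-U87MG and below it in U87MG.

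Among the 10 genes, EGR2 had the largest log2 ratio between the controls in size. EGR2 (ENSG00000122877, chromosome 10 from 62811996 to 62919900, minus strand), known from myelinating Schwann cells and from lymphocytes, had 233 counts in R-U87MG si-NC, 219 in R-U87MG si-HDAC6, 1473 in U87MG si-NC and 2785 in U87MG si-*LINC00461*. EGR1 (ENSG00000120738, chromosome 5 from 138465490 to 138469315, plus strand), the most widely induced EGR gene, had 816, 735, 561 and 224 counts. EGR2 was low in both R-U87MG libraries and highest after si-*LINC00461*, where EGR1 was lowest. Between the si-NC libraries EGR2 was 6.29-fold lower in R-U87MG (log2 ratio −2.65, interval −2.86 to −2.46), and EGR1 was 1.46-fold higher (0.54, 0.39 to 0.70). Per kb, the ratio of EGR1 to EGR2 was 4.12 (3.55 to 4.78) in R-U87MG si-NC, 3.95 (3.39 to 4.61) in R-U87MG si-HDAC6, 0.448 (0.406 to 0.494) in U87MG si-NC and 0.0946 (0.0822 to 0.108) in U87MG si-*LINC00461*.

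ATF3 (ENSG00000162772, chromosome 1 from 212565334 to 212620777, plus strand), a stress-induced factor that can repress as a homodimer, had 734, 675, 434 and 809 counts in the same order of libraries. It was lowest in U87MG si-NC. Its ratio between the controls was 0.76 (0.59 to 0.94), short of 2-fold, and with total counts it was 1.03 and past 2-fold.

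Binding motifs of these factor families and of their upstream regulators were searched in the promoters of the 10 genes. The RefSeq promoter table (GRCh38.p14, 250 bases before to 50 after each start site) holds 12 promoters for 9 of the 10 genes, FOSL1 being the one without an entry. Both strands were searched for the AP-1 motif TGACTCA, the CRE-like motif TGACNTCA, the EGR motif GCGNGGGCG and the CArG box, to which serum response factor (SRF) binds. The AP-1 and CRE-like motifs cannot share a match, and where a CArG box reads the same on both strands it was counted once. The CArG box occurred in 2 of the 12 promoters, the EGR1 promoter and 1 of the 3 EGR2 promoters, against 1.29% of all 35116 promoters of this length. The CRE-like motif occurred in 3, those of JUN, JUND and 1 of the 2 of ATF3, against 7.72% of all. TGACTCA was found in the FOSL2 promoter alone of the 12, against 4.95% of all, and the EGR motif in EGR1 and in another EGR2 promoter, against 9.43%. The RNA of EGR1 and EGR2 differed in opposite directions between the controls and after si-*LINC00461*, but not after si-HDAC6. The 150 bases before the start site are shown for both, with the CArG boxes in capitals, each read 5′ to 3′ on the strand of its gene. They lie at chr5:138465329-138465478 (plus strand) and chr10:62816367-62816516 (minus strand).
EGR1: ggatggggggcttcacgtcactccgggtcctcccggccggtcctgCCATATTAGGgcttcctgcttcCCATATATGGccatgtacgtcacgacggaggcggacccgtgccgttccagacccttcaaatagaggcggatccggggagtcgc
EGR2: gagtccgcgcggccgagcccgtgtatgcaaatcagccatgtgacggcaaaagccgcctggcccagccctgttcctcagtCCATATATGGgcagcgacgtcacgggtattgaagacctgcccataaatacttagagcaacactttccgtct

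EGR1 has 2 CArG boxes, which begin at positions −105 and −83 from the start site, and EGR2 has 1, which begins at −71 and has the letters of the second box of EGR1. The promoters of JUN and ATF3 carry the same CRE-like letters, shown in capitals in the 150 bases before each start site. They begin at −67 in JUN and at −123 in ATF3, and the windows lie at chr1:58784048-58784197 (minus strand) and chr1:212565257-212565406 (plus strand).
JUN: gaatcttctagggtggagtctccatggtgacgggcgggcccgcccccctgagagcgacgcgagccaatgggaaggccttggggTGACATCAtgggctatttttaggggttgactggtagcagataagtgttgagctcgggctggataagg
ATF3: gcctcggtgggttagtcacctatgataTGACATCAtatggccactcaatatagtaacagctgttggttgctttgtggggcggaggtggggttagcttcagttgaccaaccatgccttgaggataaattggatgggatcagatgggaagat
JUN was lower and ATF3 higher in R-U87MG si-NC than in U87MG si-NC. A match of letters is a description of these windows and not a bound site, and a missing match says nothing of sites elsewhere.

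In all, 3 of the 10 genes (FOS, FOSB and FOSL1) were at least 2-fold higher in R-U87MG si-NC than in U87MG si-NC, and 4 (FOSL2, JUN, JUNB and EGR2) at least 2-fold lower. Genes were compared where the mean of both libraries reached 1 CPM. Of these 13349 genes, 11.2% were at least 2-fold higher and 15.0% at least 2-fold lower. The 5th and 95th percentiles of their log2 ratios were −2.19 and 1.44, and only EGR2 and FOSB of the members lay beyond them. FOS had a log2 ratio of 1.42 (0.99 to 1.89) and FOSB one of 2.07 (1.51 to 2.70). The counting interval lay wholly above 0 for 5 members and below 0 for 4, against 39.4% and 38.8% of all genes compared. The members therefore stood in both directions, and their median of 0.25 (median of all genes 0.02) describes neither group. Total counts in place of TMM moved the ratios of all genes in this comparison up by 0.26, so that 2399 genes were at least 2-fold higher and 1494 lower, in place of 1494 and 2008. Under that scaling the same 7 members stayed beyond 2-fold in the same direction, and ATF3 joined the higher ones.

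Knockdown of HDAC6 in R-U87MG was accompanied by small differences in one direction. None of the 10 genes was at least 2-fold higher or lower, against 0.694% and 0.747% of the 13120 genes compared. The ratio was above 0 for 9 of them, against 48.9% of all genes, and the interval lay wholly above 0 for the same 9, against 13.8% of all, while it lay below 0 for 0 members and for 16.4% of all. The median of the members was 0.29 and that of all genes −0.01. The 2 scarce genes FOSB and FOS had the highest ratios, 0.88 (0.55 to 1.22) and 0.78 (0.47 to 1.09), which were 1.84-fold and 1.71-fold. They ranked 129 and 181 from the highest of all genes compared, beyond the 95th percentile of 0.44.

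Of the JUN genes, JUNB (0.48, 0.34 to 0.61) and JUND (0.46, 0.34 to 0.57) were also beyond that percentile, and JUN was at 0.23 (0.18 to 0.28). ATF3, EGR1 and EGR2 had ratios of 0.27 (0.12 to 0.42), 0.24 (0.09 to 0.39) and 0.30 (0.03 to 0.57). FOSL1, the most abundant member, differed by 0.13 (0.10 to 0.15), and FOSL2 was the exception at −0.07 (−0.13 to 0.00). The si-HDAC6 library is the smallest of the 4, and with both libraries thinned to its total the median was 0.30. How far 2 control cultures would differ from each other was not measured.

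**Figure D3:**
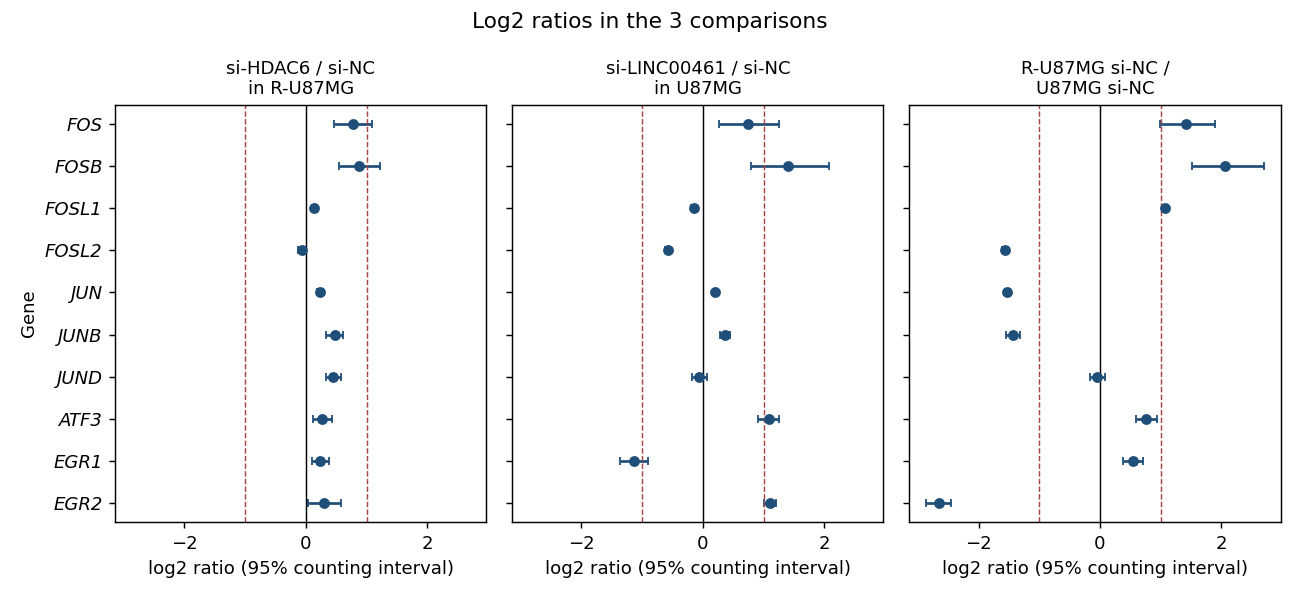
Log2 ratio of each of the 10 genes in the 3 comparisons, with 95% exact binomial counting intervals. The dashed lines mark 2-fold and the solid line no difference. All genes but FOSL2 lie to the right of 0 after si-HDAC6, whereas si-LINC00461 and the control libraries show genes on both sides.

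Knockdown of *LINC00461* in U87MG was accompanied by larger and divergent differences. FOSB, ATF3 and EGR2 were at least 2-fold higher, against 5.42% of the 13210 genes compared, and EGR1 was at least 2-fold lower, against 8.17% of them. EGR2 was 2.15-fold higher (log2 ratio 1.11, interval 1.01 to 1.20) and ATF3 2.12-fold higher (1.08, 0.92 to 1.26). FOSB was 2.66-fold higher (1.41, 0.80 to 2.08) on 31 and 73 counts. EGR1 was 2.20-fold lower (−1.14, −1.37 to −0.91). The interval of EGR2 alone among these 4 lay wholly beyond 2-fold. The 5th and 95th percentiles of all genes compared were −1.33 and 1.04. FOSB, EGR2 and ATF3 lay above the 95th, and EGR1 lay between both.

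EGR1 and EGR2, 2 factors that bind related GC-rich sites, thus differed in opposite directions, and the ratio of EGR1 to EGR2 inside the library was 4.74-fold (4.01 to 5.60) lower after si-*LINC00461*. After si-HDAC6 in R-U87MG this ratio was 0.958-fold (0.777 to 1.18) that of its control. FOS was 1.68-fold higher (0.75, 0.26 to 1.26) and JUNB 1.29-fold higher (0.36, 0.28 to 0.45). FOSL2 was 1.49-fold lower (−0.58, −0.62 to −0.54), whereas FOSL1 (−0.15, −0.19 to −0.10) and JUN (0.20, 0.18 to 0.23) differed less. JUND was at −0.06 (−0.19 to 0.06), an interval that includes 0. The interval lay wholly above 0 for 6 members and below 0 for 3, against 33.1% and 33.4% of all genes. The median of the members was 0.28 and that of all genes −0.00.

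Both this comparison and that of the controls divide by the U87MG si-NC library, and the si-HDAC6 comparison shares R-U87MG si-NC with the controls, so likeness between them can come from the shared library. FOSB, for example, had a log2 ratio of 1.41 after si-*LINC00461* and of 2.07 in R-U87MG si-NC, both against the same 31 counts, and ATF3 had ratios of 1.08 and 0.76 against the same 434 counts.

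EGR2 had the widest range over the 4 libraries among the members, 3.44 on the log2 CPM scale. Of 9461 genes with a mean of at least 10 CPM, those nearest to it by the distance between centred log2 CPM (0.5 added) over the 4 libraries were PDE4A (distance 0.273), PTK7 (0.309) and ICAM5 (0.322). PDE4A, a cyclic AMP phosphodiesterase, had 33, 24, 237 and 443 counts. With 4 libraries as points, a near pattern is a description.

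Genes around these factors were described from lists. Of 14 other proteins that can pair in AP-1 dimers (ATF, BATF, JDP2, DDIT3 and MAF genes), 12 were compared in each comparison. After si-HDAC6, 0 of the 12 were beyond 2-fold, against 0.694% higher and 0.747% lower of all genes. Their median was 0.09. After si-*LINC00461*, MAF alone was at least 2-fold lower (−1.93, 354 and 81 counts), against 8.17% of all genes. BATF2 alone was at least 2-fold higher (1.21, 17 and 35 counts), against 5.42%. In R-U87MG si-NC against U87MG si-NC, 3 of the 12 were at least 2-fold lower, against 15.0% of all genes. MAF (−4.51, 15 against 354 counts) and MAFF (−1.04) were among them. DDIT3, which encodes the stress factor CHOP, alone was at least 2-fold higher (1.69, 708 against 219 counts), against 11.2% of all genes. MAF was thus lower in the same library as FOSL2, JUN and JUNB, while MAFF came within 2-fold with total counts in place of TMM.

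Of the EGR partners, the corepressor genes NAB1 and NAB2 did not reach 2-fold in any comparison. EGR3 had 25, 15, 8 and 34 counts, with the libraries in the same order as above, and a ratio of 2.21 (1.14 to 3.60) after si-*LINC00461*. EGR4 had at most 1 count in each library, so no difference was detectable at this depth.

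Other immediate early genes leaned upward after si-HDAC6, as the 10 members did, and also in R-U87MG si-NC against U87MG si-NC. They stood in both directions after si-*LINC00461*. After si-HDAC6, 19 of 21 were compared, with a median of 0.16. The ratio was above 0 for 15 of them, against 48.9% of all genes. The interval lay wholly above 0 for 10 and below 0 for 0, against 13.8% and 16.4% of all genes. At least 2-fold higher were 3, against 0.694% of all genes, the nuclear receptor genes NR4A1 (1.5, interval 1.09 to 1.94, 71 and 154 counts), NR4A3 (1.06) and NR4A2 (1.01). The other 16 were within 2-fold. After si-*LINC00461*, 20 were compared, with a median of 0.04. Of these, 6 were at least 2-fold lower, against 8.17% of all genes, led by KLF4 (−3.40, 342 and 28 counts), CYR61 (−2.52, 828 and 126), MYC (−2.10, 1449 and 297) and KLF6 (−1.64, 1855 and 521). NR4A2 alone was at least 2-fold higher (1.11), against 5.42% of all genes. Between the controls 20 were compared, with a median of 0.54 against 0.02 for all genes. The ratio was above 0 for 16 of the 20, against 51.1% of all genes. Their interval lay wholly above 0 for 13 and below 0 for 4, against 39.4% and 38.8% of all genes. PLK2 (1.75), ARC (1.82) and CTGF (1.48) were at least 2-fold higher in R-U87MG, against 11.2% of all genes. IER3 (−1.31) and DUSP1 (−1.03), which encodes a MAP kinase phosphatase, were at least 2-fold lower, against 15.0%. With total counts DUSP1 came within 2-fold.

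Upstream of FOS and EGR transcription, 16 of 17 genes for SRF, its ternary complex factors and cofactors, CREB1, MAP kinases and RSK or MSK kinases were compared. After si-HDAC6 none was beyond 2-fold, against 0.694% higher and 0.747% lower of all genes, and the median was −0.06. After si-*LINC00461*, ELK3 (−2.47, 3378 and 534 counts) and SRF (−1.15, 534 and 211 counts) were at least 2-fold lower, against 8.17% of all genes. ELK1 alone was at least 2-fold higher (1.14, 1194 and 2313 counts), against 5.42%. The ratio was above 0 for 8 of the 16, against 49.8% of all genes. EGR1, whose promoter holds 2 CArG boxes, was lower in the same library as SRF. EGR2, with 1 CArG box in 1 of its 3 promoters, was higher. Whether SRF had a part in either was not tested. In the controls MAPK10 (−1.63) and MAPK7 (−1.59), which encodes ERK5, were at least 2-fold lower in R-U87MG, against 15.0% of all genes. At least 2-fold higher were 0, against 11.2%. The ratio was below 0 for 12 of the 16 and above 0 for 4, where 51.1% of all genes were above 0. The interval lay wholly above 0 for 3 and below 0 for 9, against 39.4% and 38.8% of all genes. The median was −0.24, against 0.02 for all genes, while SRF was higher (0.62, 0.46 to 0.78). Total counts in place of TMM move all these ratios up by 0.26.

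Known AP-1 target genes were compared for 21 of 25 genes in each knockdown and 22 in the controls. After si-HDAC6 their median was 0.07 and 0 were beyond 2-fold, against 0.694% higher and 0.747% lower of all genes. After si-*LINC00461* the median was 0.59, and 7 were at least 2-fold higher and 0 lower, against 5.42% and 8.17% of all genes. The highest were EREG (3.02, 5020 and 35746 counts), MMP1 (2.71, 82 and 472), TIMP1 (2.56, 2228 and 11552) and IL6 (2.51, 316 and 1585). They encode a growth factor, a collagenase, a protease inhibitor and a cytokine. In the controls 6 were at least 2-fold higher and 2 lower in R-U87MG, against 11.2% and 15.0% of all genes. The higher ones were led by AREG (3.57, interval 2.13 to 6.11, 41 against 3 counts), SPP1 (2.57), HMOX1 (2.03) and CCND1 (1.48), and VEGFA (−2.40) and KRT18 (−1.43) were lower. These genes have many other regulators, and AP-1 activity was not measured.

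Of 12 genes known as EGR1 targets, 9 were compared after si-HDAC6 and 10 in the other comparisons, and their medians were 0.09 after si-HDAC6, 0.13 after si-*LINC00461* and −0.18 in the controls. After si-*LINC00461*, when EGR1 was lower and EGR2 higher, 2 of the 10 were at least 2-fold lower, PDGFA (−1.75) among them. The share of all genes was 8.17%. ICAM1 (1.17) alone was at least 2-fold higher, against 5.42% of all genes. The ratio was above 0 for 5 of the 10, against 49.8% of all genes. In R-U87MG si-NC, ICAM1 (−4.08), the tissue factor gene F3 (−3.80) and IGF2 (−3.02) were at least 2-fold lower than in U87MG si-NC. These were 3 of the 10, against 15.0% of all genes. FGF2 (1.26) alone was at least 2-fold higher, against 11.2%. The ratio was above 0 for 5 of the 10, against 51.1% of all genes. EGR activity was not measured.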

How the data were processed

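The authors sequenced 1 library per condition, made with a strand-specific kit. Per the labels, bcl2fastq, Trimmomatic 0.36 and HISAT2 were used with GRCh38.p13, and the counting program, its use of strand and the annotation are not given in the sources used here. The deposited values are estimated counts for each Ensembl gene, which in every file are multiples of a single factor. That factor was located at the most frequent value above 0, refined by least squares and divided out, and the quotients were rounded. Of the values above 0, between 94.2% and 94.6% lay within 0.02 of a whole number (plus the rounding of the 6 printed digits), those of all 10 members included.

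Each pair of libraries was normalized with TMM (edgeR 4.0.16, R 4.3.3), and log2 ratios were taken with a pseudocount of 0.5, which understates differences of genes with few counts. A gene was compared where both libraries averaged 1 CPM or more, and it counted as different at 2-fold. Intervals are 95% exact binomial (Clopper-Pearson) for ratios, exact Poisson for levels and a normal approximation of the log odds ratio for changes of a ratio inside libraries. At these depths, 3 counts equal 0.150 to 0.238 CPM. Symbols, positions and exon lengths came from GENCODE 29 and promoters from RefSeq. The calculation was tested on simulated counts with known folds and counting error alone, which does not cover the spread between cultures. Without replicates, conditions could not be tested.

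The members and gene lists were chosen with earlier results of these data known. Named from each list were genes beyond 2-fold, at most 4 in each direction, and some genes that met this rule are not reported here. Python 3.11.15, numpy 2.4.6, pandas 2.3.3, scipy 1.17.1, DESeq2 1.42.0 and matplotlib 3.10.9 were used.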

Additional observations from a re-analysis of the deposited data

How the results depend on the processing

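TMM was replaced by total counts, DESeq2 size factors or upper-quartile factors. Other alternatives were a pseudocount of 0.1 or 5, thinning to 12596072 counts, no filter on low counts, a 1.5-fold threshold and an interval wholly beyond 2-fold. The scaling of the deposited values was added after the data were seen, for the 2 knockdown comparisons. With the 1.5-fold threshold, 2 members were higher after si-HDAC6 in place of 0. With the interval wholly beyond 2-fold, 1 member was higher and 0 were lower after si-*LINC00461*, in place of 3 and 1. Total counts moved the median of the members between the controls from 0.25 to 0.51. All other counts of members stayed within 1.5 times, and the other medians of the 3 comparisons lay between 0.21 and 0.31. Of the ratios of single members, 0 of 70 after si-HDAC6, 1 of 70 after si-*LINC00461* and 10 of 60 between the controls left their counting interval, and 1 changed sign (JUND between the controls, with total counts). No paired analysis was possible because each condition has 1 library. The spread between libraries of one condition was not measured, and the depth limits FOS and FOSB, which have the fewest counts.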
